A study of Mus musculus with 8 samples.

Results

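The 32 mouse chemokine ligand genes described here were chosen by name as a gene family, out of 21756 genes measured, and no measured value enters the rule. They comprise 17 Ccl genes, 13 Cxcl genes, Cx3cl1 and Xcl1. GENCODE M21 annotates 31 of them as protein coding and Cxcl11 as a polymorphic pseudogene, and all were kept. SOX9, a transcription factor of astrocytes and other glia, was mapped by CUT&Tag, in which an antibody brings a transposase to the bound protein so that nearby DNA is cut out and sequenced. Nuclei of all cell types came from spinal cords of WT mice (C57BL/6 in the methods, no age given in the labels), either uninjured or at 1 day after a thoracic contusion (1 d.p.i.), from a 5-mm segment around the lesion or at the same level, and were sorted on the DNA dye 7AAD. Each condition had 1 male (M) and 1 female (F) sample, so there were 2 uninjured and 2 injured SOX9 libraries. A portion of the nuclei of every sample got the secondary antibody alone, which gave 4 control libraries. In such bulk nuclei, fewer cells of a type and less signal per cell cannot be told apart.

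Chemokines are small secreted proteins that bind G-protein-coupled receptors on leukocytes and guide them along a gradient. Many are nearly silent in resting tissue and are switched on within hours by NF-kB, AP-1 and interferon-responsive factors. In the injured spinal cord, astrocytes, microglia and endothelium are known sources of ligands that draw neutrophils first and monocytes next. Their genes sit largely in tandem clusters that arose by duplication.

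The deposited signal is the coverage of the genome by fragments in each library. Fragments, counted as rises of the coverage, numbered 1901433 (M) and 7248962 (F) in the uninjured SOX9 libraries and 2538725 (M) and 2396777 (F) in the injured mice. The controls held 22848 (M) and 47049 (F) fragments in the uninjured mice and 53341 (M) and 10948 (F) in the injured mice. The uninjured F library stood apart by its depth. Chromosome Y took 1.13% (M) and 0.10% (F) of the SOX9 fragments in the uninjured mice and 0.624% (M) and 0.150% (F) in the injured mice, in the order of their sex labels. In the uninjured controls the order ran against the labels, with 0.197% in M and 0.444% in F, while the controls at 1 d.p.i. had 0.499% in M and 0.128% in F. In the 4 controls, between 82.4% and 93.6% of fragments standing alone shared both ends with a SOX9 fragment, and over the chemokine genes 31 of 34 such control fragments did. The far shallower controls were kept out of the tests, and their values are given beside the summed coverage.

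Coverage was averaged over a window and divided by the mean coverage of the same library, so a value of 1 is the genome average. A TSS window reaches 1 kb to each side of the annotated transcription start site (TSS), and a gene body window covers the gene and 5 kb to each side. In a TSS window, 1 fragment of average length is worth 0.704 (M) and 0.183 (F) times the mean of the library in the uninjured libraries and 0.524 (M) and 0.553 (F) in the injured mice. The chemokine TSS windows held a median of 2 (M) and 7 (F) fragments in the uninjured libraries and 3 in either library at 1 d.p.i., so single genes rest on few fragments. Gene body windows held medians of 7.5 and 29 fragments in the uninjured libraries and 13.5 and 13 at 1 d.p.i. Control fragments reached 4 of the 32 TSS windows, with at most 1 each, and 15 of the 32 gene body windows.

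SOX9 coverage of the chemokine genes was low beside that of other genes. The median level over the 4 SOX9 libraries was 1.23 times the library mean at chemokine TSS windows, with quartiles at 0.945 and 1.85, against 3.66 over all coding genes. In the single libraries the chemokine median was 1.28 (M) and 1.19 (F) in the uninjured mice and 1.55 (M) and 1.19 (F) in the injured mice, and the median of all coding genes was 2.76 and 4.57 and then 3.54 and 3.18. The chemokine median thus lay under that of all genes in each of the 4 libraries, and all 4 chemokine medians lay just above the genome average. Over gene bodies the chemokine median was 0.758, below the genome average, and that of all coding genes 1.54. A gene body level under 1 was found for 20 of the 32 chemokine genes (62.5%) and for 34.9% of all coding genes, and a TSS level under 1 for 10 (31.2%) and 26.0%. In the mean of the 4 libraries, single genes ranged from 0.212 to 11.1 times the library mean at the TSS and from 0.420 to 4.45 over the gene body.

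The shape of the signal around the TSS differed in height as well. In the 500 bp just upstream of the TSS, mean chemokine coverage reached 2.1 (M) and 2.76 (F) times the mean of the library in the uninjured mice and 2.89 (M) and 1.87 (F) in the injured mice. All coding genes had 6.34 and 13.0 in the uninjured mice and 9.38 and 7.40 at 1 d.p.i. in the same bin. Both sets peaked at the TSS in each SOX9 library, the chemokine genes with the lower peak, and in both the uninjured F and the injured M library stood above the libraries of the other sex in their condition.

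**Figure D1:**
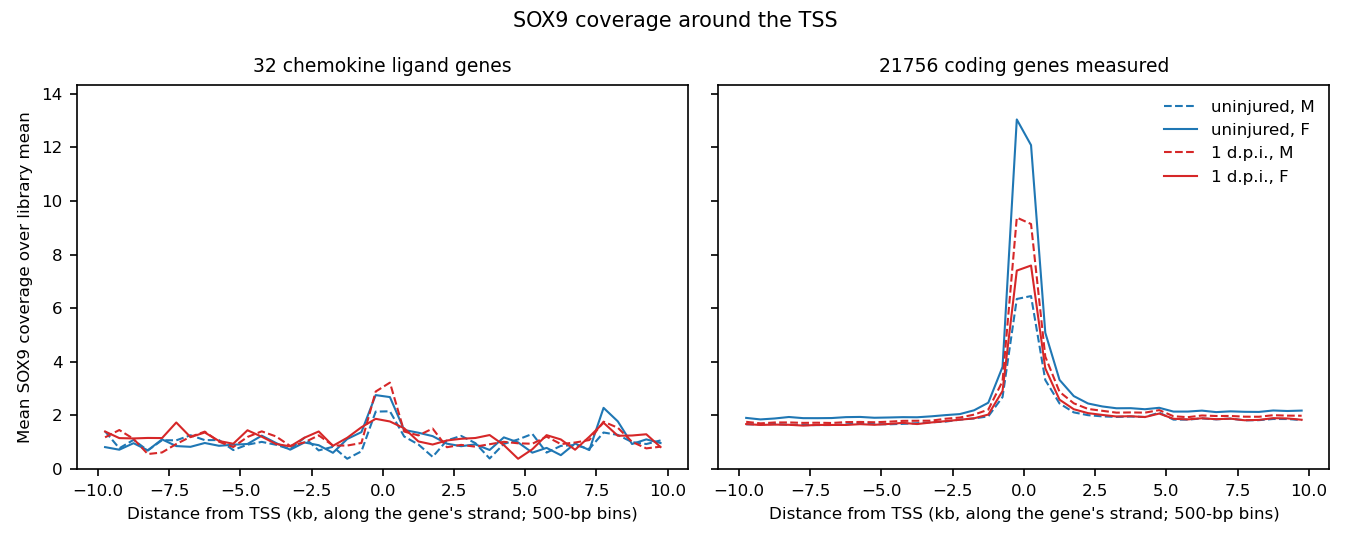
Mean SOX9 coverage over the library mean (y axis, linear) in 500-bp bins by distance from the TSS in kb (x axis), for the 32 chemokine ligand genes (left) and all 21756 genes measured (right), with 1 line per SOX9 library. Just upstream of the TSS the 4 lines lie between 1.87 and 2.89 for chemokine genes and between 6.34 and 13.0 for all genes.

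The base composition of the windows went with these levels. Chemokine TSS windows had a median CpG ratio, the CpG count over that predicted from their C and G content, of 0.194, against 0.478 over all coding genes, and a median GC content of 47.4% against 51.3%. With the windows parted at a CpG ratio of 0.35, a limit chosen after the values were seen, 22 chemokine genes fell on the CpG-poor side. Their median TSS level was 1.06, and that of the 8521 CpG-poor coding genes was 0.731, with quartiles at 0.247 and 1.92. The 10 chemokine genes on the CpG-rich side had a median level of 1.64, below the lower quartile of 3.62 among 13235 CpG-rich coding genes, whose median was 6.84. These sides are not alike in composition, since the median CpG ratio of those 10 genes was 0.384, close to the limit, and that of the CpG-rich coding genes 0.627. Over gene bodies the CpG-poor side had a median of 0.712 for chemokine genes and 0.645 for coding genes. The CpG-rich side had 1.01 for chemokine genes and 2.08 for coding genes. The part of base composition in the low levels was not tested further.

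The 6 highest TSS levels belonged to Ccl25, Cx3cl1, Cxcl17, Cxcl11, Ccl2 and Ccl17. Ccl25 encodes a ligand of CCR9 that directs T cells to thymus and gut, and its TSS window had 9.18 (M) and 14.8 (F) times the mean of the library in the uninjured mice and 13.7 (M) and 6.86 (F) in the injured mice. The conditions overlapped, with the uninjured F and the injured M library highest. The Ccl25 TSS lies within 1 kb of that of Elavl1, and its highest 200-bp bin, centred -101 bp from the Ccl25 TSS, overlaps an exon of Elavl1, so this window measures both genes. In that bin coverage was 25.5 and 45.9 times the mean in the uninjured mice and 35.0 and 14.5 at 1 d.p.i. Over the Ccl25 gene body the values of 1.60 and 2.23 in the uninjured mice and 1.87 and 1.83 at 1 d.p.i. overlapped.

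Cx3cl1 encodes fractalkine, which neurons display on their surface and which signals to microglia through CX3CR1. Its TSS window had 3.06 (M) and 10.4 (F) times the mean of the library in the uninjured mice and 7.23 (M) and 8.98 (F) in the injured mice. The uninjured M library was lowest and the uninjured F library highest, so both injured libraries fell between them. The log2 change was 0.46 (SE 0.66), where a log2 change is the limma estimate for 1 d.p.i. over uninjured on log2(coverage over library mean + 0.5), a scale that understates changes of low windows. Over the Cx3cl1 gene body the values were 2.99 and 4.55 in the uninjured mice and 3.30 and 3.4 at 1 d.p.i., which again overlap, with a log2 change of -0.13 (SE 0.29).

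Cxcl17, a mucosal chemokine that attracts myeloid cells, had 1.55 (M) and 7.08 (F) times the mean of the library at its TSS in the uninjured mice and 5.28 (M) and 1.87 (F) in the injured mice. Its gene body had the highest level of the 32, with 3.64 and 5.42 in the uninjured mice and 4.63 and 4.10 at 1 d.p.i. The conditions overlapped in both windows. The highest bin of that window lay 16934 bp from the Cxcl17 TSS in an exon of Lipe and 4732471J01Rik, where coverage was 45.2 and 98.2 in the uninjured mice and 81.4 and 65.8 at 1 d.p.i. The gene body window of Cxcl17 also held 34 control fragments, the most of any chemokine gene.

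Ccl17, a ligand of CCR4 on T cells, had 1.77 (M) and 2.25 (F) times the mean of the library at its TSS in the uninjured mice and 3.99 (M) and 1.79 (F) in the injured mice. The injured M library was highest, and the injured F library lay between the uninjured ones. Its gene body had 1.92 and 2.87 in the uninjured mice and 3.86 and 2.36 at 1 d.p.i., with the same order at the top and overlapping conditions. Cxcl11, an interferon-induced ligand of CXCR3, had 4.00 (M) and 2.7 (F) in the uninjured mice and 2.1 (M) and 2.76 (F) in the injured mice. The uninjured M library was highest, and the conditions overlapped. They overlapped over its gene body too, with 1.63 and 1.26 in the uninjured mice and 1.21 and 1.64 at 1 d.p.i.

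**Figure D2:**
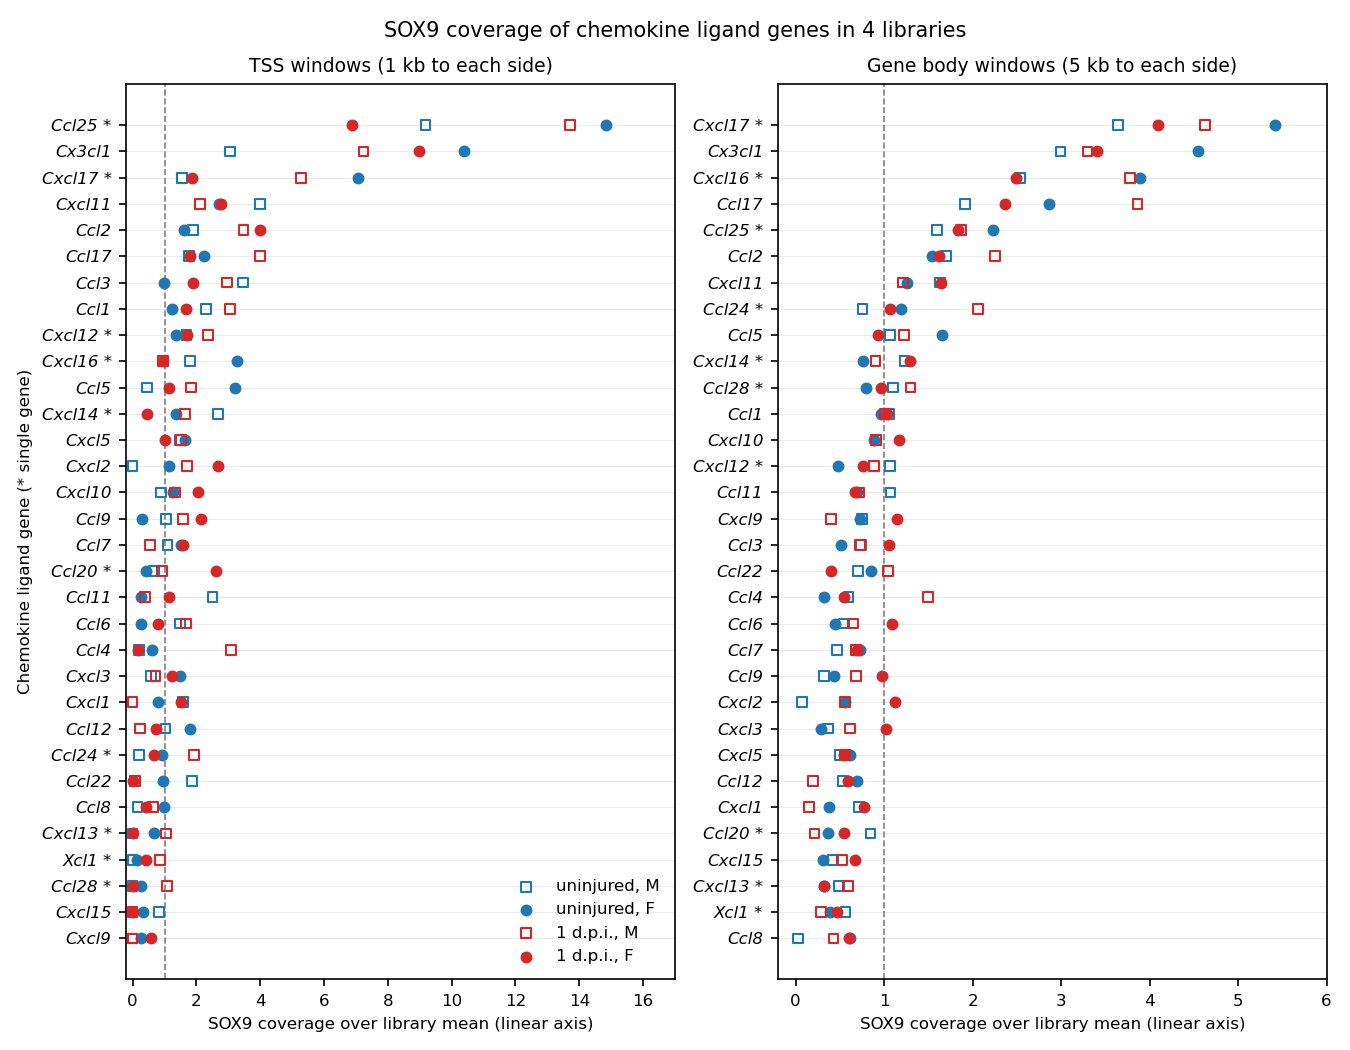
SOX9 coverage over the library mean (x axes, linear) of the 32 chemokine ligand genes, sorted by level, at TSS windows (left) and gene body windows (right), with 1 point per gene and SOX9 library and a dashed line at the genome average of 1. Points run from 0 to 14.8 at the TSS and from 0.027 to 5.42 over gene bodies, and the mean of the 4 libraries lies under 1 for 20 of 32 gene bodies.

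The change at 1 d.p.i. was tested by limma with 2 libraries a condition in genes whose mean level over the 4 SOX9 libraries was at least 0.5, a filter passed by 27 of the 32 chemokine genes in either window. At the TSS, Cxcl9, Cxcl13, Cxcl15, Ccl28 and Xcl1 fell below the filter, and over gene bodies Ccl8, Ccl20, Cxcl13, Cxcl15 and Xcl1 did. Of the 27 TSS windows tested with limma, 0 were higher and 0 lower after injury at an adjusted p under 0.05, beside 0.00552% higher and 0% lower of the 18102 genes tested. At an unadjusted p under 0.05, 0 chemokine TSS windows were higher and 0 lower, where 0.867% of all genes were higher and 0.983% lower. These counts depended on the setting. With all 8 libraries in the fit Ccl2, Ccl20 and Cxcl2 were higher (2.89% of all genes in that setting) and Ccl12, Ccl22 and Cxcl16 lower (3.91%). Without the uninjured F library Cx3cl1 and Cxcl2 were higher, 7.69% of 26 chemokine genes beside 7.39% of all genes, and Ccl22 lower (0.876%). With no filter Xcl1 was higher (1.42%) and Ccl22 and Cxcl15 lower (1.61%), and with no trend Cxcl2 was higher (1.70%) and Ccl22 lower (1.66%). Cxcl2 was also higher with thinned libraries (1.09%) or a pseudocount of 0.1 (1.17%), and Ccl12 lower with 500 bp to each side (0.927%). Over gene bodies limma likewise called 0 chemokine genes higher and 0 lower at an adjusted p under 0.05, beside 0.00567% and 0% of 17626 genes, while 5 were higher and 0 lower at an unadjusted p under 0.05. The background for these last counts was 2.34% higher and 1.75% lower, against 18.5% of the 27 chemokine genes higher. The 5 genes were Cxcl3, Cxcl2, Ccl9, Ccl4 and Ccl24, each named from its measured change, the first 4 by the naming rule and Ccl24 outside it after its values were seen. Uninjured gene body means of the first 4 were 0.328, 0.315, 0.376 and 0.461, all under the filter value of 0.5. They passed the filter only through their higher injured values, so the share of 18.5% supports no conclusion about the family. The smallest adjusted p of a chemokine gene was 0.954 over gene bodies and 1.00 at the TSS.

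The single gene called over the whole genome, named after its values were seen, was Gm11361 in both windows, and at the TSS 0 genes were called higher with any 1 SOX9 library left out. Its gene body had 0.259 (M) and 0.236 (F) times the mean of the library in the uninjured mice. In the injured mice it had 1.47 (M) and 2.96 (F), higher in 2 of 2 injured libraries. The log2 change was 1.81 (SE 0.23, limma adjusted p 0.00143). Both uninjured gene body values were under the filter value of 0.5. At the TSS the uninjured values were 0 (M) and 0.895 (F), with a mean under 0.5. Gm11361 was thus tested in either window only through its injured values. With no filter its TSS call was lost and its gene body call was kept (limma adjusted p 0.0237). This gene body call was lost without the uninjured M library (log2 change 1.83), the uninjured F library (1.78) or the injured F library (1.40). It was also lost with the median of tested genes set equal (1.83) or all 8 libraries in the fit (1.81, SE 3.03). No trend (1.81) and no flank (4.57) lost it as well. More genes were called higher over gene bodies with sex as a block (24), a filter of 1 (33) or a flank of 10 kb (29). With the standard errors reached here, from 0.66 to 0.97 at chemokine TSS windows and from 0.18 to 0.33 over their gene bodies, changes smaller than a few of these errors were not detectable at this depth.

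Median changes of the family were near 0. At TSS windows the median log2 change over the 27 tested chemokine genes was 0.065, with 15 positive, and over all tested genes -0.070. Taken between the libraries of each sex, the chemokine median was 0.34 in M and -0.19 in F, and that of all genes 0.40 and -0.54, so both sets had a positive median in M and a negative one in F. Over gene bodies the chemokine median was 0.088, with 15 of 27 positive, 0.14 in M and 0.071 in F, and that of all genes was -0.035, 0.096 in M and -0.16 in F. The sign of the change was the same in M and F for 12 of 27 genes at the TSS and for 9 of 27 over gene bodies. Among all genes tested it was the same for 6420 of 18102 at the TSS and for 6664 of 17626 over gene bodies. The TSS median changed sign when the uninjured M library was left out, to -0.13, and with windows of 500 bp to each side, to -0.091. The gene body median moved to -0.00085 with a filter of 1, which changed its sign and left 12 of the genes, to 0.015 with no flank and to 0.15 with a flank of 10 kb.

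**Figure D3:**
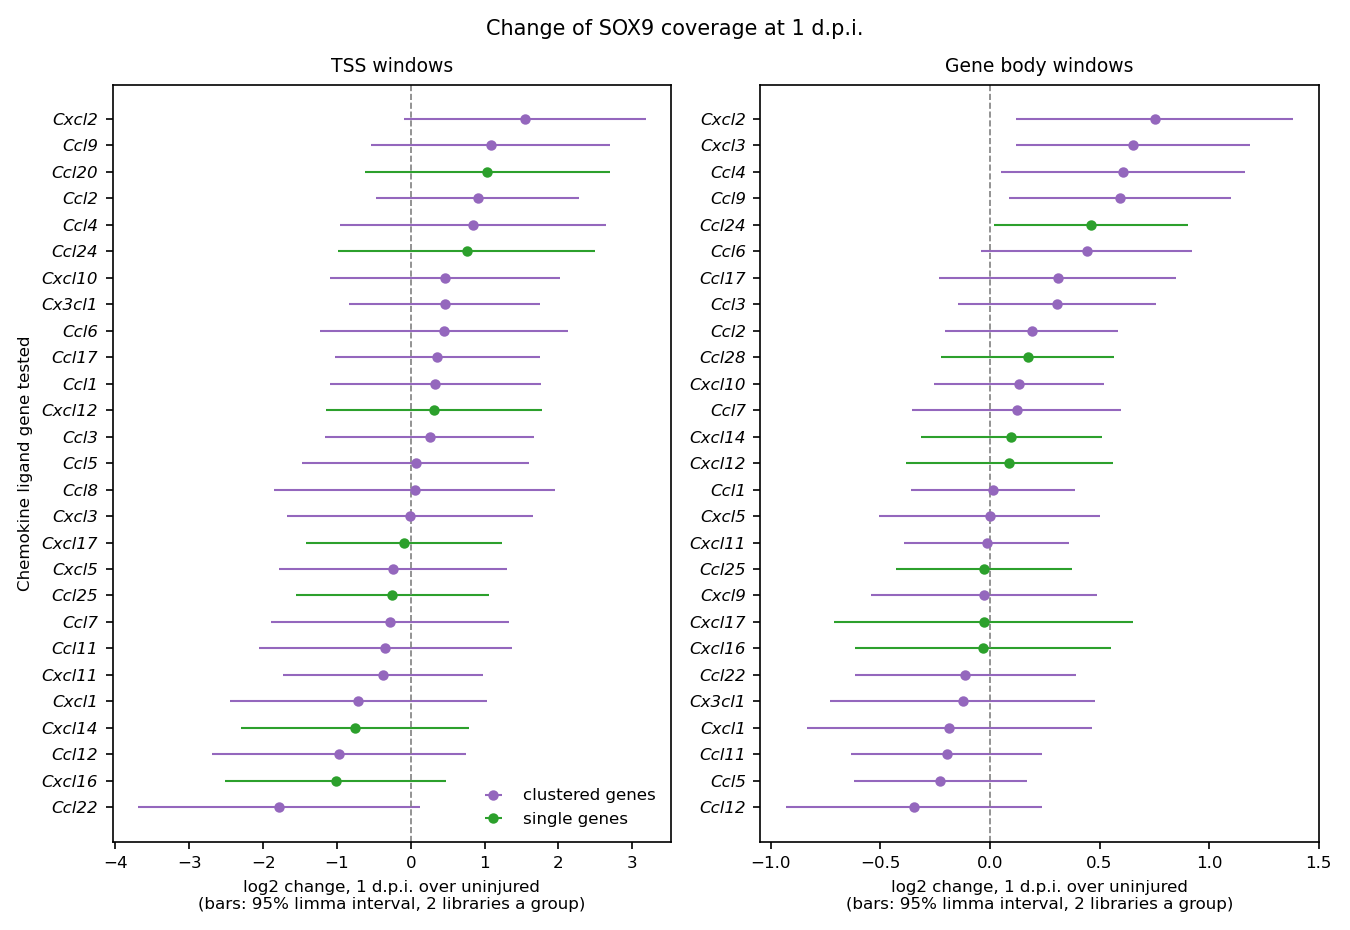
Log2 change of SOX9 coverage at 1 d.p.i. over uninjured (x axes) for the 27 chemokine genes tested at TSS windows (left) and over gene bodies (right), with 95% limma intervals from 2 libraries a condition and clustered and single genes in separate colours. Estimates at the TSS run from -1.78 (Ccl22) to 1.54 (Cxcl2) and over gene bodies from -0.35 (Ccl12) to 0.75 (Cxcl2), and 0 genes passed an adjusted p of 0.05.

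Ccl2 binds CCR2 and is a monocyte attractant made by astrocytes in the injured cord. Its TSS window, on chromosome 11 around position 82035571 of GRCm38, had 1.89 (M) and 1.63 (F) times the mean of the library in the uninjured mice and 3.48 (M) and 4.00 (F) in the injured mice. Both injured libraries were above both uninjured ones. The means were 1.76 ± 0.189 and 3.74 ± 0.374 (SD, n = 2), a difference larger than the spread between libraries, from 6 and 11 fragments in the uninjured mice and 9 and 7 at 1 d.p.i. The log2 change of 0.91 (SE 0.70) had a 95% interval from -0.46 to 2.28 and did not pass the test. Over the gene body, which shares 1742 bp of its window with that of Ccl7, Ccl2 had 1.70 and 1.54 in the uninjured mice and 2.25 and 1.62 at 1 d.p.i., where the conditions overlapped and the log2 change was 0.19 (SE 0.19). The highest 200-bp bin of Ccl2 lay just upstream, centred -101 bp from the TSS, with 7.10 and 3.67 times the mean in the uninjured mice and 16.0 and 8.59 at 1 d.p.i. from 4 or fewer fragments in each library but the injured M, which had 6. That bin lies in an intron of the coding gene Gm17268, so the windows of Ccl2 also take in DNA of Gm17268.

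Ccl12, another CCR2 ligand of the same cluster, ran the other way. At its TSS it had 1.03 (M) and 1.80 (F) times the mean of the library in the uninjured mice and 0.234 (M) and 0.745 (F) in the injured mice, with both injured libraries below both uninjured ones and a log2 change of -0.97 (SE 0.88). Those values rest on 1 and 7 fragments in the uninjured mice and 1 in each injured library. Over the gene body its log2 change of -0.35 (SE 0.28) was the lowest of the 27, with values of 0.540 and 0.689 in the uninjured mice and 0.195 and 0.598 at 1 d.p.i. that overlapped. Ccl11, which attracts eosinophils through CCR3, had a gene body level of 1.07 and 0.698 in the uninjured mice and 0.722 and 0.672 at 1 d.p.i., with a log2 change of -0.20 (SE 0.21) and overlapping conditions. At its TSS it had 2.5 and 0.277 in the uninjured mice and 0.388 and 1.13 at 1 d.p.i., where the uninjured libraries were the highest and the lowest, from at most 2 fragments a library. Seen over the whole span from Ccl2 to Ccl1, chr11:82030571-82310690, the 6 genes of this cluster had 0.843 (M) and 0.819 (F) times the mean of the library in the uninjured mice and 0.861 (M) and 0.955 (F) in the injured mice. All 4 libraries were under the genome average, and the injured libraries were slightly above the uninjured ones.

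**Figure D4:**
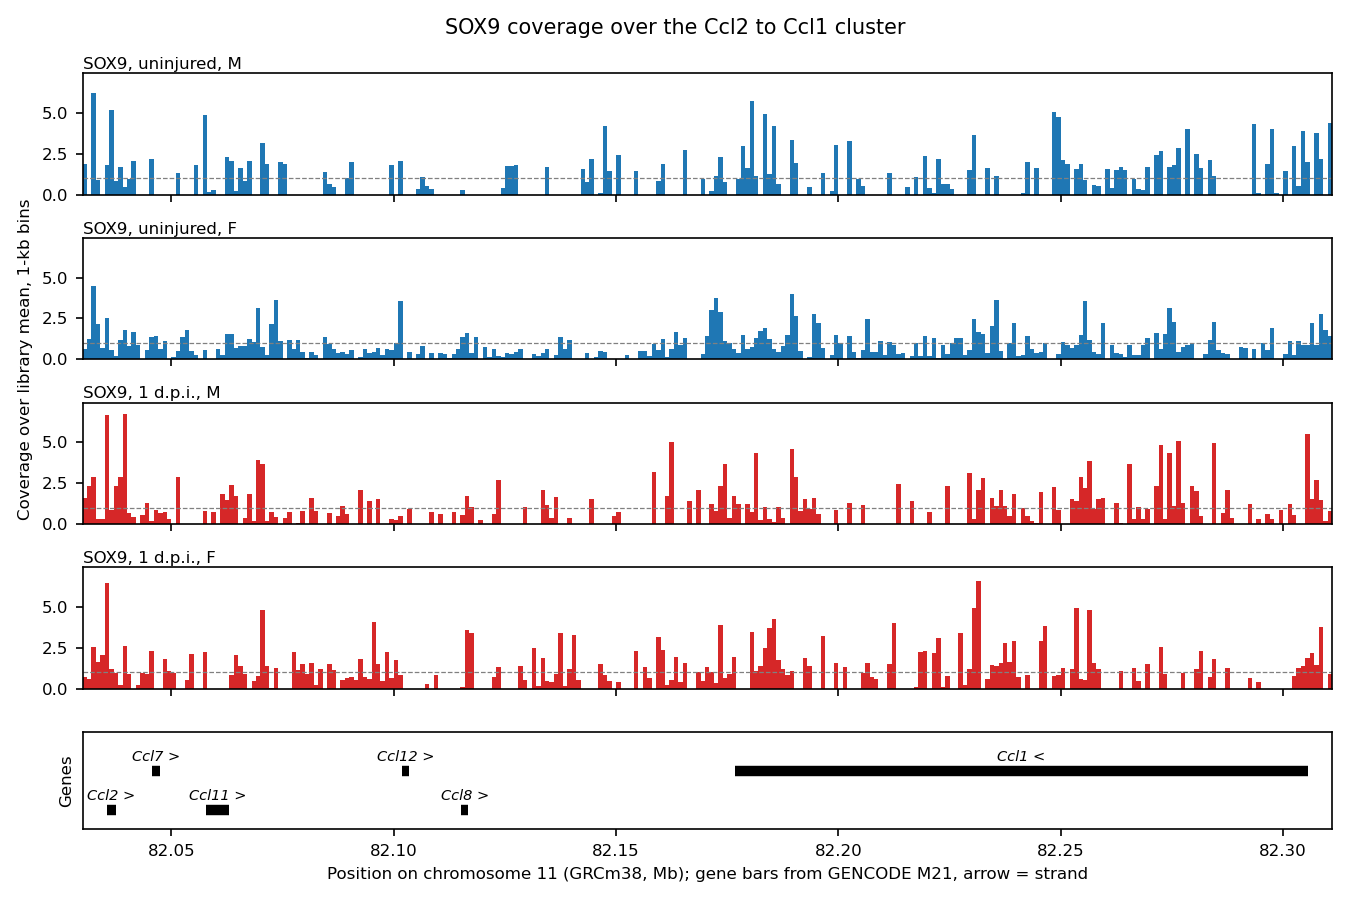
SOX9 coverage over the library mean (y axes, linear) in 1-kb bins along the cluster from Ccl2 to Ccl1 on chromosome 11 (x axis, Mb of GRCm38), with 1 panel per SOX9 library and gene bars below. Mean coverage of the span lies between 0.819 and 0.955, and the TSS window of Ccl2 has 1.89 and 1.63 in the uninjured M and F libraries and 3.48 and 4.00 at 1 d.p.i.

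The second cluster on chromosome 11 holds Ccl3, Ccl4 and Ccl5 and the rodent genes Ccl6 and Ccl9, which signal through CCR1. Over the Ccl9 gene body coverage was 0.321 (M) and 0.431 (F) in the uninjured mice and 0.680 (M) and 0.976 (F) in the injured mice, from 6 and 23 and then 11 and 13 fragments. Both injured libraries were above both uninjured ones, with a log2 change of 0.59 (SE 0.24). At its TSS, Ccl9 had 1.05 and 0.295 in the uninjured mice and 1.59 and 2.1 at 1 d.p.i., again without overlap, and a log2 change of 1.08 (SE 0.82) from at most 4 fragments a library.

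Ccl4, which attracts monocytes and T cells, had a gene body level of 0.599 (M) and 0.324 (F) in the uninjured mice and 1.49 (M) and 0.552 (F) in the injured mice. The injured M library was highest, and the injured F library lay between the uninjured ones, with a log2 change of 0.61 (SE 0.27). At its TSS only the injured M library was high, with 0.192 and 0.600 in the uninjured mice and 3.09 and 0.182 at 1 d.p.i. Ccl5, a T cell attractant, had 1.07 (M) and 1.66 (F) over its gene body in the uninjured mice and 1.22 (M) and 0.933 (F) in the injured mice, with overlapping conditions and a log2 change of -0.23 (SE 0.19). The Ccl5 TSS had 0.440 and 3.21 in the uninjured mice and 1.83 and 1.14 at 1 d.p.i., with both injured libraries between the uninjured ones. The span of this cluster, chr11:83520778-83669683, had 0.874 (M) and 0.807 (F) times the mean of the library in the uninjured mice and 1.01 (M) and 1.08 (F) in the injured mice. Both injured libraries lay above both uninjured ones, in a measure taken after the values of its genes were seen and with no test.

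Neutrophil attractants form a cluster on chromosome 5, where Cxcl1, Cxcl2, Cxcl3 and Cxcl5 encode ligands of CXCR2 and Cxcl15 encodes lungkine. Cxcl2 had the highest log2 change in either window. At its TSS it had 0 (M) and 1.14 (F) times the mean of the library in the uninjured mice and 1.69 (M) and 2.68 (F) in the injured mice, from 0 and 6 fragments in the uninjured mice and 5 and 6 at 1 d.p.i. Both injured libraries were above both uninjured ones, and the log2 change of 1.54 (SE 0.84) leans on the 0.5 added to a value of 0. Over its gene body it had 0.070 and 0.560 in the uninjured mice and 0.555 and 1.12 at 1 d.p.i., where the uninjured F and injured M libraries nearly coincided, with a log2 change of 0.75 (SE 0.30).

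Cxcl3 had gene body values of 0.367 (M) and 0.290 (F) in the uninjured mice and 0.612 (M) and 1.02 (F) in the injured mice, from 6 and 10 and then 7 and 13 fragments. The injured libraries were both higher, and the log2 change of 0.65 (SE 0.26) came with a limma adjusted p of 0.954, the smallest of the family. That window shares 5067 bp with the window of Cxcl15. At the TSS of Cxcl3 the values of 0.586 and 1.48 in the uninjured mice and 0.718 and 1.23 at 1 d.p.i. overlapped, with a log2 change of -0.011 (SE 0.85). Cxcl1, which astrocytes make after injury, gave 1.58 (M) and 0.793 (F) at its TSS in the uninjured mice and 0 (M) and 1.52 (F) in the injured mice, with overlapping conditions and a log2 change of -0.71 (SE 0.89). Its gene body had 0.716 and 0.379 in the uninjured mice and 0.149 and 0.772 at 1 d.p.i., low in the injured M library and highest in the injured F library. The span of the cluster, chr5:90754360-90910938, was the poorest in SOX9 coverage of the 5 clusters, with 0.466 (M) and 0.397 (F) in the uninjured mice and 0.455 (M) and 0.564 (F) in the injured mice.

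Cxcl10, an interferon-induced CXCR3 ligand made by astrocytes, had a TSS level of 0.882 (M) and 1.26 (F) in the uninjured mice and 1.32 (M) and 2.04 (F) in the injured mice, without overlap and with a log2 change of 0.46 (SE 0.79). These rest on 1 and 7 fragments in the uninjured mice and 3 and 4 at 1 d.p.i., and the gap between the conditions is smaller than the worth of 1 fragment in either injured library. Over its gene body the values of 0.911 and 0.884 in the uninjured mice and 0.909 and 1.16 at 1 d.p.i. overlapped. The gene body windows of Cxcl9, Cxcl10 and Cxcl11 overlap the gene Art3. The span of these chemokine genes, chr5:92316347-92370485, had 1.03 (M) and 0.900 (F) in the uninjured mice and 0.832 (M) and 1.27 (F) in the injured mice. The injured libraries were the lowest and the highest there.

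Ccl22, a CCR4 ligand made by macrophages and dendritic cells, had the lowest log2 change at the TSS, -1.78 (SE 0.97). It had 1.87 (M) and 0.943 (F) times the mean of the library in the uninjured mice and 0.078 (M) and 0 (F) in the injured mice, from 2 and 5 fragments and then 1 and 0. Both injured libraries were lower, but at this depth 1 fragment of average length is worth 0.524 in the injured M library and 0.553 in the injured F library. Over its gene body Ccl22 had 0.703 and 0.848 in the uninjured mice and 1.04 and 0.399 at 1 d.p.i., which overlapped. Ccl20, which attracts CCR6-bearing T cells, had 0.674 (M) and 0.405 (F) at its TSS in the uninjured mice and 0.931 (M) and 2.62 (F) in the injured mice, without overlap, with a log2 change of 1.04 (SE 0.85) from at most 4 fragments a library. Its gene body, below the filter, had 0.847 and 0.363 in the uninjured mice and 0.214 and 0.548 at 1 d.p.i., which overlapped with the lower mean after injury. Ccl22, Ccl17 and Cx3cl1 share a cluster, chr8:94740590-94817036, whose span had 1.74 (M) and 2.33 (F) in the uninjured mice and 2.26 (M) and 1.82 (F) in the injured mice. It was the only one of the 5 clusters above the genome average in all 4 SOX9 libraries. The controls were at 3.61 (M) and 4.64 (F) over this span in the uninjured mice and 2.03 (M) and 2.21 (F) in the injured mice. Those values rest on 2 and 6 and then 3 and 1 fragments, and the source of the level was not tested.

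Among the homeostatic and single genes, Cxcl12 binds CXCR4 and is made by endothelium and astrocytes. Its TSS had 1.69 (M) and 1.36 (F) times the mean of the library in the uninjured mice and 2.37 (M) and 1.69 (F) in the injured mice, where the injured F value exceeded the uninjured M value by less than 1 fragment is worth, and the log2 change was 0.31 (SE 0.75). Its gene body, with 1.06 and 0.484 in the uninjured mice and 0.884 and 0.756 at 1 d.p.i., overlapped. Cxcl14, a chemokine with broad constitutive expression, had 2.68 (M) and 1.35 (F) at its TSS in the uninjured mice and 1.64 (M) and 0.463 (F) in the injured mice, overlapping, with a log2 change of -0.75 (SE 0.79). Cxcl14 gene body values of 1.23 and 0.767 in the uninjured mice and 0.902 and 1.29 at 1 d.p.i. overlapped too.

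Cxcl16, a membrane-bound ligand of CXCR6, had 1.80 (M) and 3.28 (F) at its TSS in the uninjured mice and 0.951 (M) and 0.959 (F) in the injured mice. The injured libraries were both lower, with a log2 change of -1.02 (SE 0.77), in a window that also measures Zmynd15, whose TSS lies within 1 kb. Over its gene body, which takes in Med11 and Zmynd15, the values of 2.54 and 3.90 in the uninjured mice and 3.78 and 2.49 at 1 d.p.i. overlapped. The highest bin of that window lay 7902 bp from the Cxcl16 TSS in an exon of Med11, with 11.7 and 73.2 times the mean in the uninjured mice and 58.4 and 10.2 at 1 d.p.i., high in the uninjured F and the injured M library. Ccl24, an eotaxin, had a gene body level of 0.755 (M) and 1.19 (F) in the uninjured mice and 2.06 (M) and 1.06 (F) in the injured mice, with overlapping conditions and a log2 change of 0.46 (SE 0.21), and the injured M library alone was high.

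Ccl1, a CCR8 ligand whose GENCODE gene spans 129034 bp, had gene body levels of 1.06 (M) and 0.962 (F) in the uninjured mice and 1.01 (M) and 1.04 (F) in the injured mice, which overlapped. Ccl3, a CCR1 ligand made by microglia, had 0.739 (M) and 0.508 (F) and then 0.726 (M) and 1.06 (F), where the injured F library was highest and the conditions overlapped. Ccl7 and Ccl8 attract monocytes like Ccl2, and their gene bodies had 0.472 and 0.730 in the uninjured mice and 0.685 and 0.695 at 1 d.p.i. (Ccl7) and 0.027 and 0.617 and then 0.428 and 0.609 (Ccl8). Both overlapped, and the uninjured M value of Ccl8 rests on 1 fragment.

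Cxcl5 had a gene body level of 0.499 (M) and 0.615 (F) in the uninjured mice and 0.556 (M) and 0.551 (F) in the injured mice, which overlapped. For Cxcl9, an interferon-induced CXCR3 ligand, the levels were 0.754 and 0.733 in the uninjured mice and 0.401 and 1.15 at 1 d.p.i., with the injured libraries on either side of the uninjured ones. Cxcl15, below the filter in both windows, had gene body levels of 0.421 and 0.305 in the uninjured mice and 0.522 and 0.667 at 1 d.p.i., with no overlap in a window shared with Cxcl3. Ccl28, a mucosal chemokine, had 1.1 and 0.795 over its gene body in the uninjured mice and 1.30 and 0.967 at 1 d.p.i., which overlapped. Cxcl13, which gathers B cells through CXCR5, had 0.490 and 0.322 in the uninjured mice and 0.595 and 0.319 at 1 d.p.i., and Xcl1, which attracts dendritic cells through XCR1, had 0.563 and 0.392 and then 0.287 and 0.465, all under the genome average and overlapping.

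Counted over the family, both injured TSS values were above both uninjured values in 6 of the 27 genes tested (22.2%), namely Ccl2, Ccl9, Ccl20, Cxcl2, Cxcl10 and Cxcl12, beside 8.41% of all genes tested. Both were below in 3 of 27 (11.1%), namely Ccl12, Ccl22 and Cxcl16, beside 14.9% of all genes. In Ccl20, Cxcl10 and Cxcl12 the gap between the conditions was less than a single fragment is worth in the injured libraries. Injured TSS means of Ccl12 and Ccl22 were 0.490 and 0.039, so these genes passed the filter only through their uninjured values. The TSS shares were not set against those of genes at a like level and were not tested. Over gene bodies both injured values were above in 3 of 27 (11.1%), namely Ccl6, Ccl9 and Cxcl3, beside 11.8% of all genes, and below in 0 of 27, beside 15.3%. Ccl6 is named after its values were seen, with 0.545 (M) and 0.447 (F) in the uninjured mice and 0.649 (M) and 1.09 (F) in the injured mice. Uninjured gene body means of Ccl6, Ccl9 and Cxcl3 were 0.496, 0.376 and 0.328, all under the filter value of 0.5. These genes passed the filter only through their higher injured values, so the gene body share of higher genes supports no conclusion about the family. Ccl9 was the only gene higher without overlap in both windows.

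The 5 gene body windows at an unadjusted p under 0.05 were mostly low. Among the 3464 genes with a gene body level from 0.5 to 1, 3.67% were higher at an unadjusted p under 0.05, and 4 of the 15 chemokine genes at that level were. The level is the mean over all 4 SOX9 libraries, and those 4 genes had uninjured means under 0.5. They reached this level only through their injured values, so the comparison supports no conclusion. From 1 to 2 the share was 3.76% of 5534 genes and 1 of 8 chemokine genes, and at 2 or more 0.904% of 8628 genes and 0 of 4. The 5 genes were reduced to Ccl24 alone when the median of the tested genes was set equal between libraries, a setting in which 2.69% of all genes were higher. The changes of the other 4 did not shrink there, with a log2 change of 0.62 for Ccl9, 0.63 for Ccl4, 0.68 for Cxcl3 and 0.78 for Cxcl2, but their standard errors grew to between 0.34 and 0.41. With a trimmed mean of log ratios there were again 5, with Ccl6 in place of Ccl24 (1.51% of all genes). With the libraries thinned to the same number of fragments, though not to the same fragment length, Ccl2, Ccl24, Cxcl2 and Cxcl10 were higher (2.29%) and Ccl5 lower (1.84%), so Ccl4, Ccl9 and Cxcl3 dropped out. With no flank Ccl4 and Ccl20 were higher (2.08%) and Ccl5 lower (1.96%), and with a flank of 10 kb Ccl3, Ccl4, Ccl9 and Ccl24 were higher (2.64%) and Ccl5 lower (1.74%). The genes were Ccl6 and Cxcl3 with all 8 libraries in the fit (0.715%), Ccl9 and Cxcl3 with no trend (1.44%), Ccl24 with a filter of 1 (2.33%), and with no filter Ccl6 again stood in place of Ccl24 (2.21%).

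Leaving out an uninjured library moved the shares of all genes as well. Without the uninjured M library Ccl4 and Cxcl3 were higher, beside 2.7% of all genes, and Ccl5 was lower, 3.85% of 26 chemokine genes beside 9.31% of all genes. Without the uninjured F library Ccl9, Ccl24 and Cxcl2 were higher, 10.7% of 28 chemokine genes beside 6.64% of all genes. Without the injured M library Ccl6, Cxcl2 and Cxcl3 were higher (1.75% of all genes), and without the injured F library Ccl4 and Ccl24 (1.26%).

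The union of the 32 TSS windows, 64032 bp, had 1.54 (M) and 2.07 (F) times the mean of the library in the uninjured mice and 2.12 (M) and 1.68 (F) in the injured mice, from 73 and 370 and then 138 and 106 fragments. The means of 1.81 ± 0.373 and 1.90 ± 0.310 (SD, n = 2) lay closer together than the libraries of a condition, with a ratio of 1.05. In the controls the same windows held 0 and 2 fragments in the uninjured mice and 1 and 1 at 1 d.p.i., too few to set a background. The union of the gene body windows, 642475 bp in 29 stretches, had 1.14 (M) and 1.27 (F) in the uninjured mice and 1.30 (M) and 1.24 (F) in the injured mice. The means were 1.20 ± 0.0908 and 1.27 ± 0.0371 (SD, n = 2), with a ratio of 1.05 and overlapping conditions.

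As a share of all fragments, the gene body windows took 0.0289% (95% Wilson interval 0.0265% to 0.0314%) in the uninjured M and 0.0308% (0.0295% to 0.0321%) in the uninjured F library. At 1 d.p.i. they took 0.0323% (0.0302% to 0.0346%) in M and 0.0304% (0.0283% to 0.0327%) in F, so all 4 intervals overlap, counting error only. In the controls the coverage of the same windows reached 1.40 (M) and 1.49 (F) times the mean of the library in the uninjured mice and 1.26 (M) and 0.860 (F) in the injured mice, from 7 and 29 and then 33 and 3 fragments. As shares of fragments on the same chromosomes the controls had 0.0308% (0.0149% to 0.0636%) in M and 0.0622% (0.0433% to 0.0893%) in F without injury. After it they had 0.0626% (0.0446% to 0.0880%) in M and 0.0275% (0.00937% to 0.0810%) in F. By coverage the 4 SOX9 libraries lay within the range of the controls, and by share the uninjured F and the injured M control lay above all 4 SOX9 intervals. The window of Cxcl17 alone held 34 of these control fragments.

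Clustered genes, with another listed gene within 100 kb, numbered 22 in 5 clusters, and single genes 10. Both kinds had similar TSS levels, with medians of 1.23 and 1.35, while clustered gene bodies had 0.745 and single ones 1.04. Summed over the clustered gene bodies, coverage was 0.968 (M) and 1.04 (F) in the uninjured mice and 1.07 (M) and 1.11 (F) in the injured mice, and over the single ones 1.47 and 1.71 in the uninjured mice and 1.74 and 1.5 at 1 d.p.i. Clustered sums were higher in both injured libraries, and single sums overlapped. The gap between the clustered sums of 1.04 (uninjured F) and 1.07 (injured M) was smaller than that between the libraries of either condition. No test was made of these sums. The median log2 change of clustered genes exceeded that of single genes by 0.25 at the TSS, where it was 0.16 over 20 tested genes and -0.091 over 7. Over gene bodies the difference was -0.020, from medians of 0.068 and 0.088. Its sign depended on the setting in both windows, and no test was made of it.

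The highest 200-bp bin of a gene lay within 1 kb of its TSS in 14 of the 32 genes and farther away in 18, with mean levels from 2.07 to 72.7. Of the highest bins, 9 held the SOX core ACAANG, 0 the AP-1 motif TGANTCA and 1 the NF-kB motif GGANNTTCC, each searched on both strands with overlaps allowed. These counts were not set against bins of other genes. The bins of Cxcl17, Cxcl16 and Ccl25 were the highest and overlapped exons of neighbouring genes. Next came Cx3cl1, whose bin lay in its own intron, centred 499 bp downstream of the TSS, with 5.75 (M) and 11.3 (F) times the mean of the library in the uninjured mice and 17.1 (M) and 25.1 (F) in the injured mice. Both injured libraries were above both uninjured ones in this bin, from 2 and 13 and then 6 and 9 fragments, a comparison made after the values were seen and not tested. It is shown as the highest of these 32 bins outside the exons of other genes, at chr8:94772409-94772608 of GRCm38, plus strand, and holds 0 matches to the 3 motifs.
Cx3cl1 highest bin: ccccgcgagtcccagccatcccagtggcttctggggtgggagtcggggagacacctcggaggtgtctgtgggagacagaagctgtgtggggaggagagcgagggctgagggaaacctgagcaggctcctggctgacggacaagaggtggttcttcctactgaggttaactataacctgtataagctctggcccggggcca

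RefSeq promoters on GRCm38.p6, of 300 bases with 250 of them before the gene start, were at hand for 22 of the 32 genes. Ccl2, Ccl4, Ccl5, Ccl7, Ccl11, Ccl24, Cxcl5, Cxcl11, Cxcl16 and Cxcl17 had no entry. The SOX core occurred in 5 of the 22 promoters (22.7%) and in 41.6% of all 27025 promoters. The AP-1 motif occurred in 4 of 22 (18.2%) beside 7.93% of all, and the NF-kB motif in 6 of 22 (27.3%) beside 4.24%. A match describes the letters in the window and not a bound site.

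The NF-kB motif was in the promoters of Cxcl1, Cxcl2, Cxcl3, Cxcl10, Ccl12 and Ccl1. In the neutrophil attractants it began at -70 (Cxcl1), -96 (Cxcl2) and -72 (Cxcl3), counted from the RefSeq start, and in Cxcl10 at -158 with an AP-1 motif at -74. These 4 promoters are shown as examples of the motif in the Cxcl genes, and none of them held the SOX core. The capitals mark the NF-kB motif and, in Cxcl10, also the AP-1 motif. Each is written in the direction of its gene and ends before the earlier of the RefSeq and GENCODE starts, at chr5:90890995-90891240, chr5:90903649-90903870 and chr5:90785851-90786100 on the plus strand and chr5:92348890-92349139 on the minus strand of GRCm38.
Cxcl1 promoter: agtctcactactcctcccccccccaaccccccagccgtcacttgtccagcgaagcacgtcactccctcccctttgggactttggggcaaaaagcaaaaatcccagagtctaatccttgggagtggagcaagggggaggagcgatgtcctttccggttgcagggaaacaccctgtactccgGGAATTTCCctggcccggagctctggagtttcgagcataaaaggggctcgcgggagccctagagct
Cxcl2 promoter: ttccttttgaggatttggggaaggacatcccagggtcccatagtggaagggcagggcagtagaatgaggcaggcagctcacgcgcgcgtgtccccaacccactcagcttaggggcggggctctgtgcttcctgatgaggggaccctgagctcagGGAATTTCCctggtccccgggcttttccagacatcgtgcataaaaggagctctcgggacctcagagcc
Cxcl3 promoter: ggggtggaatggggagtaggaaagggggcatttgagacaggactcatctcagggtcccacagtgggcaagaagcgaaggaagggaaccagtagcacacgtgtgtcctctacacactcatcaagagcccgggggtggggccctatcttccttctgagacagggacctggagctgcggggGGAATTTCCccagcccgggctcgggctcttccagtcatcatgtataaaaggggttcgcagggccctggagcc
Cxcl10 promoter: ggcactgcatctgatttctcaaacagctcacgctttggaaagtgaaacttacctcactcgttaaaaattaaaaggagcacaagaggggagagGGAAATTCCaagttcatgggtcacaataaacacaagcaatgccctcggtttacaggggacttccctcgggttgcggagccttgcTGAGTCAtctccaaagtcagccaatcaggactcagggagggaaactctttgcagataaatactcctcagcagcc

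Chemokine receptors, which sit on the recruited leukocytes and on microglia, had a median TSS level of 1.00 and a median gene body level of 1.12 over 23 genes. Of 17 tested at the TSS with limma 0 passed an adjusted p under 0.05, with 1 higher (Cxcr1) and 0 lower at an unadjusted p under 0.05, beside 0.867% and 0.983% of all genes. The Cxcr1 TSS had 0 (M) and 0.652 (F) in the uninjured mice and 3.26 (M) and 1.44 (F) in the injured mice. Its uninjured mean was under the filter value of 0.5, and it was tested only through its injured values. The count of higher receptors at the TSS thus supports no conclusion. Of 19 tested over gene bodies 0 passed, with Ccr8 and Cxcr1 higher and Cxcr4 lower at an unadjusted p under 0.05, beside 2.34% and 1.75% of all genes. Cxcr1, a receptor of neutrophil attractants, had gene body values of 1.05 (M) and 0.934 (F) in the uninjured mice and 2.25 (M) and 1.28 (F) in the injured mice, with both injured libraries higher and a log2 change of 0.57 (SE 0.20). Cxcr4, the Cxcl12 receptor, had 1.04 (M) and 1.14 (F) in the uninjured mice and 0.869 (M) and 0.509 (F) in the injured mice, both injured libraries lower, with a log2 change of -0.44 (SE 0.20). The median log2 change of the receptors was -0.21 at the TSS and -0.033 over gene bodies.

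The 17 genes of cytokine inducers and of NF-kB and interferon signalling had a higher median level, 4.87 at the TSS and 1.78 over gene bodies. With limma 0 of 15 tested passed an adjusted p under 0.05 in either window, and at an unadjusted p under 0.05 there were 0 at the TSS and 2 higher over gene bodies, Nfkbia and Tnfaip3, both feedback inhibitors of NF-kB, beside 2.34% of all genes. Nfkbia had gene body values of 3.33 (M) and 4.79 (F) in the uninjured mice and 8.64 (M) and 7.88 (F) in the injured mice, with a log2 change of 0.96 (SE 0.37, limma adjusted p 0.951). Tnfaip3 had 0.623 (M) and 0.737 (F) in the uninjured mice and 1.36 (M) and 1.29 (F) in the injured mice, with a log2 change of 0.63 (SE 0.18, limma adjusted p 0.627). In both genes 2 of 2 injured libraries were above both uninjured ones, and neither passed the correction. Of 6 chemokine ligands outside the family list, with median levels of 2.26 and 1.89, 0 of 5 tested at the TSS and 0 of 4 over gene bodies passed in limma. At an unadjusted p under 0.05 there were 0 at the TSS, and Ccl19, a CCR7 ligand, was lower over its gene body with a log2 change of -0.55 (SE 0.25), as 1.75% of all genes were.

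Markers of cell types that make or follow chemokines were read as chromatin signal and not as expression. Median TSS levels were 2.72 for astrocytes, 12 for the oligodendrocyte lineage, 6.35 for neurons, 8.21 for ependymal cells, 2.09 for microglia and macrophages and 1.80 for endothelium. The 5 markers of neutrophils and monocytes had a median TSS level of 0.566 (M) and 0.313 (F) in the uninjured mice and 0 (M) and 0.814 (F) in the injured mice, and S100a9 was at 0 in all 4 SOX9 libraries. Only the neutrophil and monocyte list was below the genome average at the TSS among the marker lists, at 0.454. With limma 0 markers passed an adjusted p under 0.05 in either window, and 0 had an unadjusted p under 0.05. Median gene body log2 changes were 0.20 for astrocytes, -0.23 for the oligodendrocyte lineage, -0.28 for neurons, -0.14 for ependymal cells, 0.053 for microglia and macrophages, -0.017 for endothelium and 0.22 for the 2 of 5 neutrophil and monocyte markers tested. Of the 7 astrocyte markers 7 had a positive gene body change and 5 were higher without overlap (11.8% of all genes), while 0 of 5 oligodendrocyte and 0 of 3 neuron markers had a positive change, with 2 lower without overlap in each list (15.3% of all genes). Of the microglia and macrophage markers 2 of 4 were higher without overlap over gene bodies, and of the neutrophil and monocyte markers 1 of 2. The astrocyte markers were less uniform at the TSS, with 5 of 7 positive, 2 higher without overlap (8.41% of all genes) and 2 lower (14.9%). The part of these markers in the chemokine values was not tested.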

How the data were processed

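The authors demultiplexed reads with deML, mapped them to mm10 with Bowtie2 2.5.4, removed duplicates with Picard 3.4.0 and called peaks with SEACR 1.3, as the submitters' processing notes give it; peaks were not used here. The deposited signal, in whole-number coverage without scaling for depth, came as 20283253 stretches of the 8 libraries in 1 list. The step that wrote them is not stated. Each rise of the coverage was counted as 1 fragment.

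Genes are from GENCODE M21 on GRCm38, on chromosomes 1 to 19 and X. Window coverage was divided by the library mean, and genes with a mean of at least 0.5 over the 4 SOX9 libraries were tested with limma 3.58.1 (under R 4.3.3), fitted to log2(value + 0.5), with a mean-variance trend and no covariate, two-sided, adjusted by Benjamini-Hochberg over all genes tested. The controls were left out because of their depth. An exact permutation test of 2 libraries against 2 cannot give a p below 0.333, so none was run on the sums. Scripts used Python 3.11.15, numpy 2.4.6, scipy 1.17.1, pandas 2.3.3, pysam 0.24.0 and matplotlib 3.10.9. The fit was tested on simulated data.

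The members and lists were chosen with earlier results of these data known. Genes named with all values were the 6 highest at the TSS, the 3 highest and 3 lowest log2 changes among tested genes in each window, Ccl2, Cxcl1, Cxcl10, Cxcl12, Cxcl14 and Cx3cl1, and any member called. Most of these were thus named from their measured values. The remaining members are given by gene body level so that each is accounted for. Alternatives covered scaling, pseudocount, filter, window size, the distance between clustered neighbours, all 8 libraries in the fit, sex as a block, the trend, depth, gene coordinates, the member with the most signal left out of the sums, and each SOX9 library left out.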

Additional observations from a re-analysis of the deposited data

Results flagged for a closer look

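Each tested chemokine gene and family median whose log2 change of SOX9 coverage at 1 d.p.i. had opposite signs in the male and female libraries is given here. There was 1 SOX9 library per sex and condition, so whether M and F differ was not tested. An effect of sex cannot be told apart from other features of a library, such as the greater depth of the uninjured F library. Differences are M minus F.

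At TSS windows the median over the chemokine genes was 0.34 in M and -0.19 in F, a difference of 0.53. The median of all coding genes had the larger difference of 0.94, from 0.40 and -0.54, and over gene bodies it had 0.26, from 0.096 and -0.16.

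Of the 27 chemokine genes tested, 15 had opposite signs at the TSS. The sign was the same for 12 of them and for 6420 of all 18102 genes tested, so opposite signs were frequent over all genes too. Positive in M and negative in F were Cxcl17 (1.49 and -1.68, difference 3.17), Ccl4 (2.37 and -0.69, difference 3.06), Ccl5 (1.31 and -1.18, difference 2.49), Ccl24 (1.81 and -0.30, difference 2.1), Ccl25 (0.55 and -1.06, difference 1.61), Ccl8 (0.80 and -0.69, difference 1.48), Cx3cl1 (1.12 and -0.20, difference 1.32), Ccl17 (0.99 and -0.26, difference 1.25), Cxcl5 (0.034 and -0.51, difference 0.55) and Cxcl3 (0.17 and -0.19, difference 0.35). Negative in M and positive in F were Ccl11 (-1.76 and 1.07, difference -2.83), Cxcl1 (-2.06 and 0.64, difference -2.70, with 0 fragments in the injured M library), Ccl3 (-0.19 and 0.70, difference -0.89), Cxcl11 (-0.78 and 0.025, difference -0.81) and Ccl7 (-0.62 and 0.045, difference -0.66).

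Over gene bodies 18 of 27 had opposite signs. The sign was the same for 9 of them and for 6664 of all 17626 genes tested. Positive in M and negative in F were Ccl24 (1.03 and -0.11, difference 1.14), Ccl17 (0.85 and -0.24, difference 1.09), Cxcl16 (0.49 and -0.56, difference 1.05), Ccl22 (0.36 and -0.58, difference 0.94), Ccl5 (0.14 and -0.59, difference 0.73), Cxcl17 (0.31 and -0.36, difference 0.67), Cx3cl1 (0.12 and -0.37, difference 0.49), Ccl25 (0.17 and -0.23, difference 0.40), Ccl7 (0.29 and -0.041, difference 0.33) and Cxcl5 (0.080 and -0.085, difference 0.17). Negative in M and positive in F were Cxcl1 (-0.91 and 0.53, difference -1.44), Cxcl9 (-0.48 and 0.42, difference -0.90), Cxcl14 (-0.30 and 0.50, difference -0.80), Ccl3 (-0.015 and 0.63, difference -0.64), Cxcl11 (-0.31 and 0.28, difference -0.60), Cxcl12 (-0.18 and 0.35, difference -0.53), Cxcl10 (-0.0011 and 0.27, difference -0.27) and Ccl1 (-0.043 and 0.071, difference -0.11).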

How the results depend on the processing

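Of 324 comparisons with an alternative, 239 kept their value within the spread between libraries or, for counts, within a factor of 1.5, and 85 moved. The number of chemokine genes called was 0 in each setting run, in both windows. RefSeq gene coordinates were chosen after seeing the data, and the others are those given under the processing. The cause was not tested.

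The 1 TSS window called higher over all genes became 0 with a trimmed mean of log ratios, no filter, all 8 libraries in the fit, thinned libraries, windows of 500 bp to each side and RefSeq coordinates, and 0 to 0 with any SOX9 library left out. With the median of tested genes set equal, 6 were higher and 1 lower, in place of 1 and 0.

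Over gene bodies the count of 1 higher became 9 with a trimmed mean of log ratios, 33 with a filter of 1, 29 with a flank of 10 kb and 2 with RefSeq coordinates. It became 0 with the median set equal, all 8 libraries in the fit, no trend or no flank. The count of 0 lower became 4 with a trimmed mean, 6 with a filter of 1 and 2 with a flank of 10 kb. With sex as a replicate block 24 were higher and 4 lower, 0 of them chemokine genes. With 1 SOX9 library left out, 0 to 14 were higher and 0 to 5 lower, with 14 and 5 in the absence of the injured M library. A lone library is then assumed to vary like the other group.

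The chemokine gene body median of 0.088 was 0.14 with a pseudocount of 0.1, -0.00085 with a filter of 1, which tested 12 of the 32 genes, 0.015 with no flank, 0.15 with a flank of 10 kb and 0.025 to 0.14 with a library left out. Within the spread between libraries, the TSS median of 0.065 was -0.091 with 500 bp to each side and -0.13 to 0.32 with a library left out, lowest without the uninjured M library. Clustered minus single medians at the TSS changed sign with no filter (-0.095), with 2 kb to each side (-0.24) and without the uninjured F (-0.21) or the injured F library (-0.22). The ratio of summed coverage ran from 0.919 to 1.23 at the TSS and from 1.00 to 1.11 over gene bodies with a library left out. Depth limits the TSS values, which rest on a median of 2 fragments in the uninjured M library.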

Other observations

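The limits of these values are depth and number. Each condition had 2 SOX9 libraries, of different sex, so sex, animal and library cannot be told apart within a condition. The controls were too shallow to give a background for single genes, their chromosome Y shares in uninjured cords ran against their labels, and most of their lone fragments had the ends of SOX9 fragments. Whether the coverage of a window reflects SOX9 binding was not tested. Windows of neighbouring genes share DNA, as those of Ccl2 and Ccl7 (1742 bp), Ccl9 and Ccl6 (755 bp) and Cxcl3 and Cxcl15 (5067 bp). The GENCODE gene of Ccl1 is 129034 bp long, so its TSS window lies far from the RefSeq start.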
